A study of Rattus norvegicus with 11 samples.

Results

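Skeletal muscle fibres contract when calcium leaves the sarcoplasmic reticulum, an internal store, and relax when it is pumped back. A voltage sensor in the surface membrane opens the release channel across junctions held together by junctophilin, calsequestrin binds calcium inside the store, SERCA pumps return it, the small membrane proteins sarcolipin and phospholamban restrain the pump, and parvalbumin binds calcium in the cytosol of fast fibres. Slow and fast fibres use different isoforms of several of these proteins. The set described here is 10 genes of this cycle, taken by their symbols from a count table of 16810 rows. Rows were found for 7 of the 10, Atp2a2, Pvalb, Casq1, Casq2, Sln, Pln and Jph1, and all 7 passed the filter on low counts. The fast pump gene Atp2a1, the release channel gene Ryr1 and the voltage sensor gene Cacna1s had no row under these symbols and are not analysed here.

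RNA was measured in the soleus, a postural hind limb muscle, of 11 male rats (Sprague Dawley, 12 months of age), no 2 from the same litter. The mothers of 5 animals (the high-fat group) ate a diet rich in lard fat and sugar, with 20% sucrose and 23.3% or 23.5% fat, as the labels give it in separate places, for 3 weeks before mating and until the end of lactation. The mothers of the other 6 (the control group) ate chow with 10% sucrose and 6% or 7% fat over the same time. From weaning at day 21 all offspring ate standard chow, so the groups differ by the mother's diet and the question was whether that diet altered adult muscle. Libraries held 10.2 to 15.4 M counted reads. The slow myosin gene Myh7 was abundant in all 11 animals, with a scaled level (CPM, counts per M reads, where M is mega) of 17367 to 25146 in high-fat animals and 18432 to 23574 in controls. The fast myosin genes Myh1, Myh2 and Myh4 together made 0.797% to 8.74% of the counts of these 4 myosin genes in the high-fat group and 0.607% to 11.4% in the control group, so animals of both groups differed widely in fast fibre RNA. Of 9 fast fibre markers 9 had a lower mean in the high-fat group (median log2 fold change -0.74, 0 at an unadjusted p under 0.05), and of 7 slow fibre markers 6 had a lower mean (median -0.10). Among all genes 50.9% had a log2 fold change above 0. The fast marker Myl1 was at -0.01. Single animals raised the control means of Myh1 and Myh4. Myh1 was 559 CPM in control animal 5, against 19.5 to 142 CPM in other controls. Myh4 was 150 CPM in control animal 2, against 8.04 to 19.1 CPM in other controls. The summed level of 5 macrophage markers ran from 72.2 to 481 CPM in the high-fat group and from 81.0 to 239 CPM in the control group (5 of 5 with a higher mean), and that of 4 nerve markers from 40.1 to 153 CPM in the high-fat group and from 57.5 to 1505 CPM in the control group (4 of 4 with a lower mean). The part of these cells and fibres in the values below was not tested. In whole muscle, fewer fibres of a type and less RNA per fibre cannot be told apart.

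Promoter sequences of 3 genes are shown because the results turn on them: the calsequestrin genes Casq1 and Casq2, and Pvalb, whose level varied most. Each runs from 250 bases before to 50 bases after the start of the RefSeq gene in build GRCr8, 5′ to 3′ on the gene's strand. Capitals mark E boxes (CANNTG, which reads the same on both strands), a motif bound by myogenic bHLH factors, and in Casq2 also a match to the MEF2 motif.
Casq1 chr13:87212661-87212960 (minus strand): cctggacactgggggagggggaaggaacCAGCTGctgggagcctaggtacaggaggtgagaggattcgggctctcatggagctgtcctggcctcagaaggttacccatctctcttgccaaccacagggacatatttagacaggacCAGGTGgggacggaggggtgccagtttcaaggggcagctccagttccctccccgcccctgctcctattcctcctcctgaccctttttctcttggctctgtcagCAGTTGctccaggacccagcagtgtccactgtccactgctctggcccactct
Casq2 chr2:192214306-192214605 (plus strand): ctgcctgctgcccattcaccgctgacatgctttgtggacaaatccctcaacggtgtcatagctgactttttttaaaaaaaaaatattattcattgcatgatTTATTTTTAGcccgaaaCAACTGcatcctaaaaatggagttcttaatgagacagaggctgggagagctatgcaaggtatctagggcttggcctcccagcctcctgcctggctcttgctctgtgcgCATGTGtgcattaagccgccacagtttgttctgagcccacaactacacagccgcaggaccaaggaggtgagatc
Pvalb chr7:111666240-111666539 (minus strand): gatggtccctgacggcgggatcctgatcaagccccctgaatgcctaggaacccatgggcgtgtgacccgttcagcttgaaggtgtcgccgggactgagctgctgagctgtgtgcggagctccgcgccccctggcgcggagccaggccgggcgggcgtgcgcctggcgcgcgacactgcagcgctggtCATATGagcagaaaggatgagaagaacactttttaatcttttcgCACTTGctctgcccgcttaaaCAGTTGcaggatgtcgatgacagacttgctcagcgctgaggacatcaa
The Casq1 and Pvalb windows each hold 3 E boxes and the Casq2 window holds 2. Of 33469 rat promoter windows of the same length, 72.1% hold at least 1, so most genes share this feature. The MEF2 match in Casq2, which begins at position -149 from the start and overlaps no E box, is found in 3.29% of windows. Windows were also found for Atp2a2 and Pln, with 1 and 2 E boxes. Neither the TATAAA motif, held by 14.2% of windows on either strand, nor the CArG box, held by 1.64%, occurred in any of the 5 windows. A match is a description of letters and not evidence of binding.

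Jph1, which encodes the junctophilin that ties the surface membrane to the store in skeletal muscle, had 44.8, 72.9, 42.7, 81.8 and 71.2 CPM in high-fat animals 1 to 5, against a lowest, median and highest value of 33.8, 57.2 and 68.1 CPM in the control group. High-fat animals 2, 4 and 5 lay above every control animal and high-fat animals 1 and 3 lay below all controls but animal 4, so the groups overlapped. The log2 fold change, high-fat over control, was 0.17 ± 0.20 (SE), and it was 0.06 without either high-fat animal 4 or control animal 4.

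Casq1, the calsequestrin of fast fibres and the main one of skeletal muscle, was the steadiest of the 7 genes. Its level was 667, 854, 712, 646 and 708 CPM in high-fat animals 1 to 5, against a lowest, median and highest value of 711, 770.3 and 842 CPM in the control group. High-fat animal 2 was the highest of all 11 animals, high-fat animals 1, 4 and 5 lay below every control animal, and high-fat animal 3 lay within the control range. The mean level in CPM was 717 ± 81.4 in high-fat animals (n = 5, SD) and 773 ± 52.9 in controls (n = 6, SD), with a log2 fold change of -0.11 ± 0.10 (SE).

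Casq2, the calsequestrin of heart and slow fibres, had 596, 717, 819, 777 and 619 CPM in high-fat animals 1 to 5, against 569, 736 and 876 CPM as the lowest, median and highest control values. The high-fat values fell inside the control range in 5 of 5 animals. The log2 fold change was -0.06 ± 0.14 (SE).

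Atp2a2 encodes SERCA2, the calcium pump of slow fibres and heart. It took 2.02% to 2.83% of all counted reads in the high-fat group and 1.69% to 2.71% in the control group. Its level was 24189.8, 27660, 19220.1, 27738 and 19923 CPM in high-fat animals 1 to 5, against 18365, 24033 and 27879 CPM as the lowest, median and highest control values. The high-fat animals fell into a lower pair, animals 3 and 5, and a higher trio, animals 1, 2 and 4, and 5 of 5 lay within the control range. The mean level in CPM was 23746 ± 4079 in high-fat animals (n = 5, SD) and 23834 ± 3279 in controls (n = 6, SD), and the log2 fold change was -0.0053 ± 0.17 (SE).

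Sln encodes sarcolipin, which uncouples the pump from calcium transport and is linked to heat production. Its level was 493.3, 261, 194, 312 and 393 CPM in high-fat animals 1 to 5, against 195, 328 and 427 CPM as the lowest, median and highest control values. High-fat animal 1 was the highest animal and high-fat animal 3 the lowest, a 2.54-fold range. The log2 fold change was 0.09 ± 0.26 (SE). It was -0.10 without high-fat animal 1, -0.01 without control animal 2 and -0.03 without control animal 5.

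Pln encodes phospholamban, the inhibitor of SERCA2 in heart and slow fibres. Its level was 32.7, 12.0, 13.1, 8.48 and 10.3 CPM in high-fat animals 1 to 5, against 9.96, 12.0 and 28.4 CPM as the lowest, median and highest control values. High-fat animal 1 and control animal 6 stood well above the other animals of their groups, of which control animal 5 was the highest at 17.6 CPM. The log2 fold change was -0.0013 ± 0.36 (SE), and it was -0.48 without high-fat animal 1 and 0.27 without control animal 6. Pln rested on 106 to 393 reads per library, the fewest of the 7 genes but for some Pvalb values.

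Pvalb, the cytosolic calcium buffer of fast fibres, varied most. Its level was 69.8, 9.38, 17.8, 61.7 and 140 CPM in high-fat animals 1 to 5, against 4.11, 38.4 and 110 CPM as the lowest, median and highest control values. High-fat animal 5 and control animal 5 were the highest pair of animals and control animal 3 the lowest, a 33.96-fold range over the 11 animals. The mean level in CPM was 59.6 ± 51.9 in high-fat animals (n = 5, SD) and 42.0 ± 36.6 in controls (n = 6, SD). The log2 fold change of 0.51 ± 0.70 (SE) was smaller than its error, and it was -0.08 without high-fat animal 5 and 1.05 without control animal 5.

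**Figure D1:**
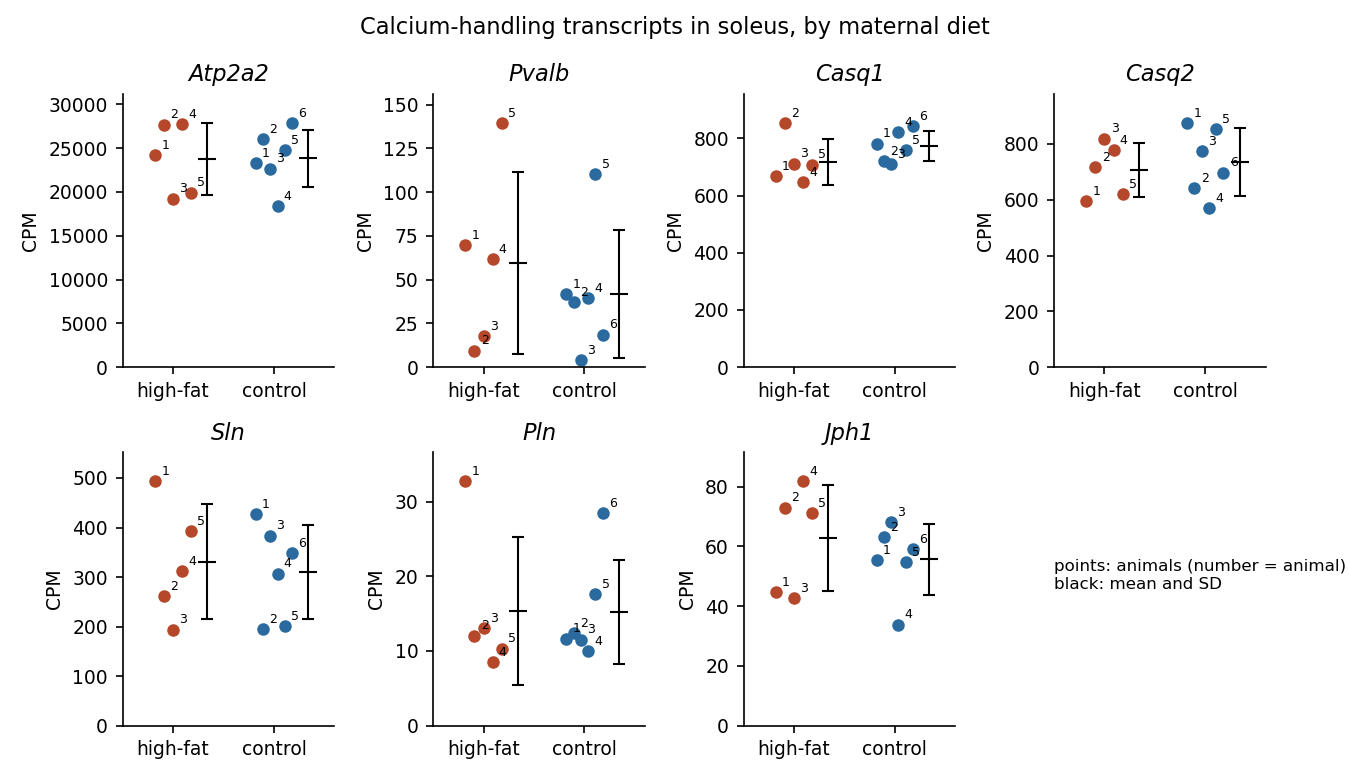
Level of each calcium gene in CPM (vertical axes, from 0) in the 5 high-fat animals and the 6 control animals, numbered, with the group mean and SD in black. The groups overlap in every panel. Pvalb spans 4.11 to 140 CPM, while Casq1 spans 646 to 854 CPM.

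None of the 7 genes was called by maternal diet. With edgeR's quasi-likelihood test and Benjamini-Hochberg adjustment over 10814 genes, 0 of 7 were called, and the share called among all genes was 0.00%. The adjusted p of the 7 ran from 0.974, for Casq1, to 1.00, for Pln. At an unadjusted p under 0.05 there were 0 of 7, against 4.84% of all genes (3.45% higher and 1.39% lower). In 0 of 7 did the groups stand apart without overlap, against 0.370% of all genes. DESeq2, limma voom and edgeR's likelihood ratio test also called 0 of 7. Of the 7 genes 3 had a log2 fold change above 0, as did 50.9% of all genes, and their median log2 fold change of -0.0013 stood beside 0.0039 for all genes. In simulated data for the same comparison over 10731 genes, randomly drawn genes were changed. The test recovered 31.3% of those changed 1.5-fold, 68.2% of those changed 2-fold and 97.0% of those changed 4-fold. Differences of 1.5-fold and 2-fold could thus go uncalled. These rates are averages over genes and need not hold for any 1 of the 7, whose spread between animals differed widely. The simulation had 133 genes called, against 0 in the data. Adjustment is stricter where fewer genes change, so the rates may be too high for these data.

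**Figure D2:**
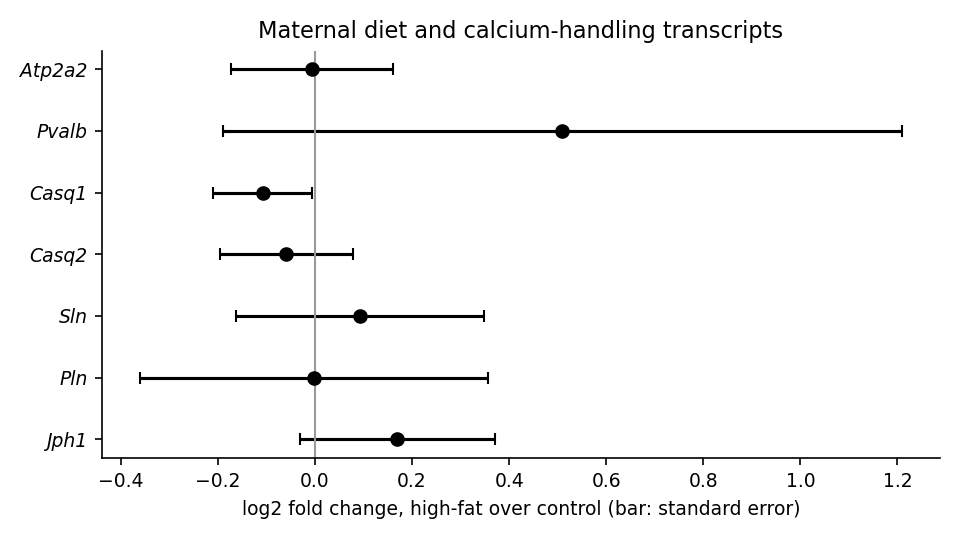
Log2 fold change of each calcium gene, high-fat over control (horizontal axis), with its standard error as the bar and no change at the grey line. Atp2a2 and Pln sit at -0.0053 and -0.0013, and the bar of Pvalb, at 0.51 ± 0.70, is the widest.

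The genes differed in how much they varied between animals. The SD of log2 CPM within groups was 1.58 for Pvalb, 0.65 for Pln, 0.50 for Sln, 0.39 for Jph1, 0.23 for Atp2a2, 0.22 for Casq2 and 0.13 for Casq1, beside a median of 0.27 over all genes. By this SD Pvalb ranked 20 of 10814 genes from the most variable, while Casq1 ranked 10027. Atp2a2 and Casq2 had nearly the same spread, a little below the median of all genes. All slow fibre genes did not share it, since Pln, also of slow fibres, had 0.65.

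**Figure D3:**
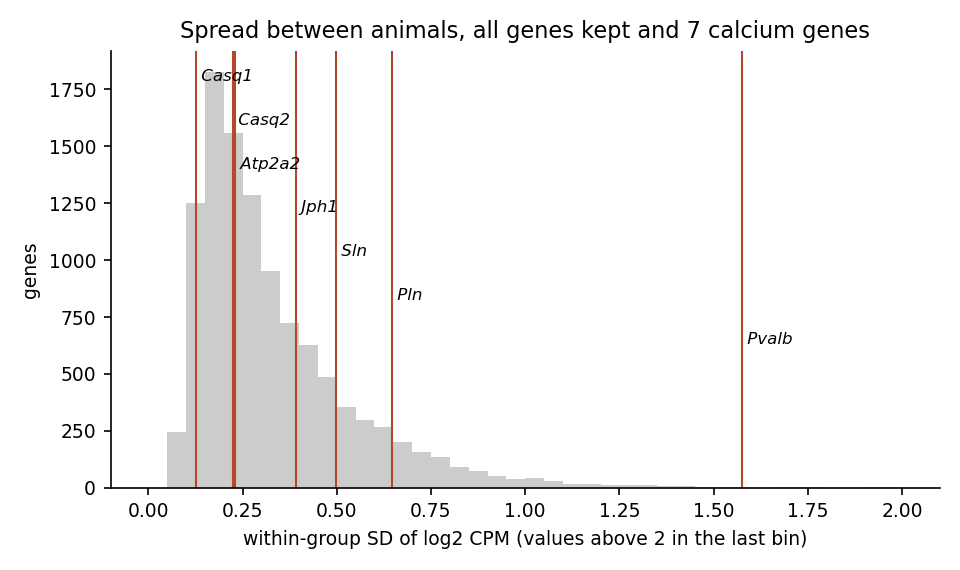
Distribution over all 10814 genes of the SD of log2 CPM within diet groups (horizontal axis) as number of genes (vertical axis), with a red line for each calcium gene. Casq1 lies at the low end at 0.13, Atp2a2 and Casq2 lie near the bulk, and Pvalb stands in the far tail at 1.58.

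Casq1 was set against Casq2, and Sln against Pln, within each library, where scaling cancels. Sln and Pln encode different proteins that act on the pump and are not a slow and a fast isoform. The counts are not divided by transcript length, so only differences between animals are read from these ratios. The Casq1 to Casq2 ratio of counts was 1.12, 1.19, 0.869, 0.831 and 1.14 in high-fat animals 1 to 5, against 0.891, 1.02 and 1.44 as the lowest, median and highest control values. In log2 units the mean was 0.03 ± 0.24 in high-fat animals (n = 5, SD) and 0.09 ± 0.29 in controls (n = 6, SD), a difference of -0.06 (two-sided exact permutation test over 462 splits, p = 0.703, adjusted over 2 ratios 0.740). The Sln to Pln ratio was 15.1, 21.6, 14.8, 36.7 and 37.9 in high-fat animals 1 to 5, against 11.4, 23.2 and 36.4 as the lowest, median and highest control values. Its log2 mean was 4.54 ± 0.66 in high-fat animals (n = 5, SD) and 4.38 ± 0.76 in controls (n = 6, SD), a difference of 0.15 (two-sided exact permutation test, p = 0.740, adjusted 0.740). Both differences lay within the spread between animals. The pump isoforms could not be compared without a row for Atp2a1.

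The calsequestrin ratio was set against the fibre myosins across animals. The fast myosin index was the log2 ratio of summed Myh1, Myh2 and Myh4 counts to Myh7 counts. The Casq1 to Casq2 ratio correlated positively with this index (Pearson's r = 0.77, permutation p = 0.00703, and Spearman's rho = 0.75, permutation p = 0.0109, n = 11), but over the 9 relations computed neither passed adjustment (0.0633 and 0.0743). Casq1 alone had a positive value (r = 0.70, permutation p = 0.0189, adjusted 0.0850; rho = 0.72, permutation p = 0.0165, adjusted 0.0743) and Casq2 alone had r = -0.47 (permutation p = 0.138, adjusted 0.311; rho = -0.47, permutation p = 0.144, adjusted 0.386). Without control animal 3 and high-fat animal 4, the 2 animals farthest from the median index, r was 0.72 for the ratio and 0.62 for Casq1. Among the 6 control animals alone r was 0.73 for the ratio (exact permutation p = 0.0931). No correlation is given for the 5 high-fat animals alone. The ratio does not depend on library scaling, but its parts do: with library size scaling in place of TMM, r was 0.29 for Casq1 (permutation p = 0.395) and -0.61 for Casq2 (permutation p = 0.0455, adjusted 0.205).

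Whether the relation passed depended on which fast myosin was counted and on control animal 5. Control animal 5 had 559 CPM of Myh1, against 19.5 to 142 CPM in the other control animals and 39.5 to 89.6 CPM in the high-fat group, and a low Casq1 to Casq2 ratio of 0.891. With Myh2, the myosin of type 2A fibres, as the only fast myosin, the ratio had r = 0.82 (permutation p = 0.00252, adjusted 0.0227) and rho = 0.81 (permutation p = 0.00394, adjusted 0.0355), with r = 0.79 without the same 2 animals. In the control animals alone it had r = 0.81 (exact permutation p = 0.0417). The adjusted values cover the relations to Myh2 only, and not the choice among the fast myosin indices tried. Without control animal 5 the relation to the summed index gave r = 0.84 (permutation p = 0.00275, adjusted 0.0247). That animal lay below the trend, so leaving it out raised r, and the adjustment does not cover its choice. Leaving out any other single animal gave an adjusted permutation p of 0.0512 to 0.200. With Myh1 as the only fast myosin and all animals, the ratio had r = 0.05. High-fat animal 2 and control animals 2, 4 and 6, the 4 animals with the most Myh2 at 1806 to 2391 CPM, had ratios of 1.12 to 1.44, and high-fat animals 1 and 5, with 598 and 340.05 CPM of Myh2, had ratios of 1.12 and 1.14. The short reads of this study could be split between the closely related Myh1, Myh2 and Myh4, and the rule for counting such reads is among the steps not given in the sources.

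**Figure D4:**
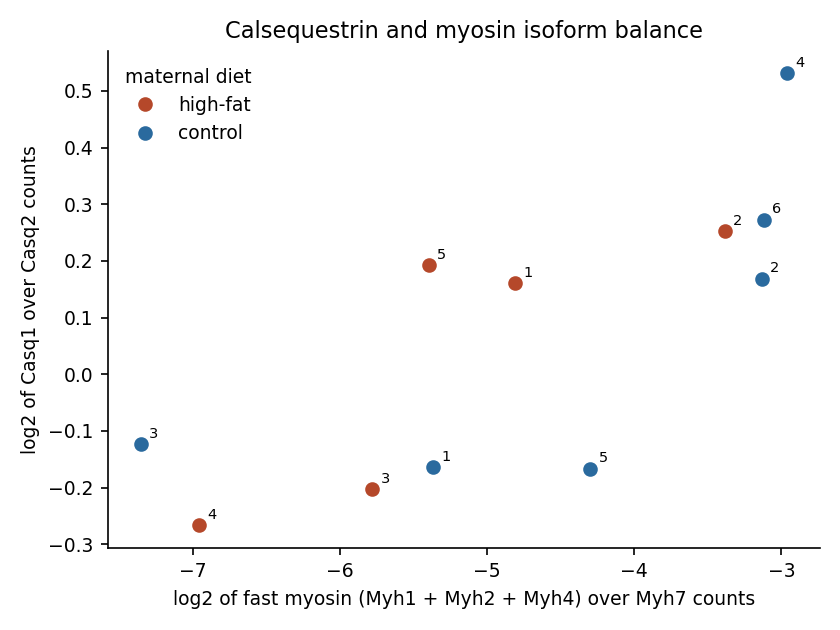
Log2 ratio of Casq1 to Casq2 counts (vertical axis) against the log2 ratio of summed fast myosin counts to Myh7 counts (horizontal axis), 1 numbered point per animal, with high-fat and control animals in different colours. The points trend upward to the right (r = 0.77, n = 11) with both groups mixed, and control animal 5 lies below the trend.

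Pvalb had no detectable relation to the summed index (r = 0.12, permutation p = 0.734; rho = 0, permutation p = 1; adjusted 0.734 and 1) or Myh2 (r = 0.02, permutation p = 0.957; rho = -0.07, permutation p = 0.838). Set against Myh1, an index added after the values were seen, it had r = 0.72 (permutation p = 0.0123, adjusted 0.111; rho = 0.69, permutation p = 0.0224, adjusted 0.202). That relation did not hold without control animals 5 and 3, the ends of the Myh1 index, when r was 0.42 (exact permutation p = 0.267). Among the 6 control animals, which include control animals 5 and 3, r was 0.93 (exact permutation p = 0.0167). The remaining genes had r between -0.36 and 0.33 with the summed index, Jph1 and Pln being the ends and Atp2a2 and Sln having 0.13 and -0.29, and the smallest adjusted permutation p of these 4 genes was 0.492. Sln had r = -0.62 when set against Myh4 as the only fast myosin, an index added after the values were seen (permutation p = 0.0127, adjusted 0.114). The Sln to Pln ratio had r = -0.49 (permutation p = 0.123, adjusted 0.311).

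**Figure D5:**
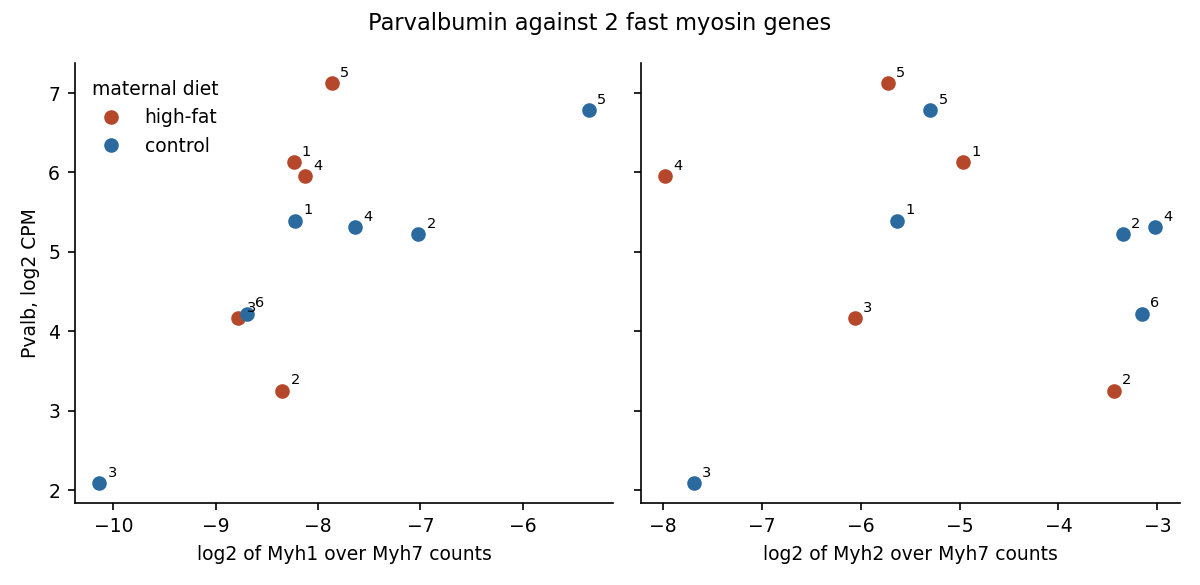
Pvalb in log2 CPM (vertical axis) against the log2 ratio of Myh1 (left) or Myh2 (right) to Myh7 counts (horizontal axes), 1 numbered point per animal, high-fat and control in different colours. In the left panel control animals 3 and 5 mark the low and high ends of a rising cloud (r = 0.72), and in the right panel r is 0.02.

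No pair of the 7 genes had a correlation that passed adjustment. Over their 21 pairs the largest correlation across animals was that of Atp2a2 with Jph1 (r = 0.63, permutation p = 0.0391, adjusted 0.821; rho = 0.55, permutation p = 0.0829, adjusted 0.926), which was 0.12 without the 2 animals farthest from the median of Atp2a2. Casq1 and Casq2 had r = -0.02 (permutation p = 0.949) and Sln and Pln 0.23 (permutation p = 0.504).

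The genes whose levels ran most like each calcium gene were sought among 8565 other genes with at least 5 CPM on average. The measure was Pearson's r of deviations from group means over 11 animals, as a description. A search this wide over 11 animals can return high values of r for unrelated genes, and the values were not tested. For Atp2a2 the closest genes were Naa35 (0.95), Mfn1 (0.93), a mitochondrial fusion gene, and Mmachc (0.93). Casq1 ran most like Lmod2 (0.92), a leiomodin that caps and lengthens thin filaments, Prcc (0.88) and the kinase gene Dyrk1b (0.88), and the genes close to Casq2 included Traf3 (0.88) and Stk39 (0.87). Sln was most like Pprc1 (0.93), a coactivator of the PGC-1 family, Nfatc2 (0.91), a transcription factor driven by calcineurin, and Odf2 (0.90). Pln was most like Zcchc10 (0.92), the phosphate transporter gene Slc20a1 (0.90) and Srsf10 (0.89). Jph1 was most like Zbed4 (0.97), Atf2 (0.96) and Pja2 (0.95), and Pvalb like Nsmce4a (0.91), Krr1 (0.90) and Pspc1 (0.87).

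A wider list of calcium genes, taken from knowledge of the pathway, was read in the same fit. Of 42 listed genes 37 had a row that could be matched and all 37 passed the filter. Of these, 20 had a higher mean and 17 a lower mean, their median log2 fold change was 0.03, and edgeR called 0, with 0 at an unadjusted p under 0.05. Among all genes kept, 50.9% had a log2 fold change above 0 and the median was 0.0039. Of all genes 0.00% were called, and 4.84% had an unadjusted edgeR p under 0.05. On the higher side the smallest p belonged to Itpr1, an inositol trisphosphate receptor channel, at 97.0 ± 15.2 CPM in high-fat animals (n = 5, SD) and 79.8 ± 13.7 CPM in controls (n = 6, SD), which is a log2 fold change of 0.28 ± 0.13 (SE). The store membrane cation channel gene Tmem38b followed at 0.28 ± 0.18, then the voltage sensor subunit genes Cacnb1 at 0.16 ± 0.11 and Cacna2d1 at 0.28 ± 0.19. On the lower side Cav3, the caveolin of muscle membranes, stood at 227 ± 32.9 CPM in high-fat animals (n = 5, SD) and 282 ± 58.8 CPM in controls (n = 6, SD), which is a log2 fold change of -0.31 ± 0.15 (SE). S100a1, a calcium-binding modulator of the release channel, stood at -0.27 ± 0.15, the store calcium sensor gene Stim1 at -0.15 ± 0.11 and the T-tubule gene Bin1 at -0.13 ± 0.09. All 8 had an edgeR adjusted p of 0.974.

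Several of these genes are also expressed in heart, so heart markers were examined. The atrial genes Nppa and Myl7 had at most 1 and 0 counts in any library, and Nppb at most 2. Other heart markers were detected in every library, with 168 to 808 counts of the troponin gene Tnnt2 in the high-fat group and 102 to 1642 in the control group, 26 to 74 counts of Tnni3 in the high-fat group and 42 to 81 in the control group, and 4 to 16 counts of Ryr2 in the high-fat group and 1 to 18 in the control group. The heart myosin gene Myh6 stood at 386 to 993 CPM in the high-fat group and 456 to 928 CPM in the control group, with overlapping groups (log2 fold change of 0.03 ± 0.25, SE).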

How the data were processed

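The authors deposited unnormalised counts of reads for each gene symbol, as 1 table whose columns were matched to animals by name. Per the labels' protocols, poly(A) RNA from 2 µg of total RNA was sequenced for 36 cycles. The submitters' processing notes name FastQC, BWA, HTSeq and edgeR; the build, annotation and treatment of strand and shared reads are not stated there, so reads of close relatives such as the pump or myosin genes may be split or lost.

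Columns were grouped by the diet label, and animals are numbered in the order of their records, so that high-fat animals 2 to 5 carry the numbers 3 to 6 in the table's own headers. The genes and lists were chosen with earlier results of these data known. Genes were kept by filterByExpr (10814 of 16810) and scaled by TMM (factors 0.897 to 1.12), and CPM values are TMM-scaled. High-fat over control was tested by quasi-likelihood F in edgeR, with a threshold of 0.05; standard errors are the fold change over the square root of F. Log2 CPM used a prior count of 2, and ratios had 0.5 added to each count. Correlations were tested with 2-sided permutations, by 100000 random pairings, or all pairings with fewer than 10 animals. No library was a repeat of another, since each of the 55 pairs had a chi-square per degree of freedom of 20.2 or more. An exact 0 allows up to 3 counts, which is 0.179 to 0.320 CPM on the TMM scale, for counting error only.

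Named genes were the 10 listed genes, the myosins Myh7, Myh2, Myh1, Myh4 and Myh6, the 4 with the smallest p per direction of the wider list, and the 3 most alike each calcium gene, of which 1 is not reported here. Levels were not compared between genes, since transcript lengths were not used here. The planned Atp2a1 to Atp2a2 ratio was not run. The test was checked on simulated data, with 4 unchanged genes among 133 called. Alternatives were other scalings, filters and tests, covariates, and leaving out each animal. Promoter sequences came from RefSeq (GRCr8), matched by symbol for 5 of the 7 genes. Versions were Python 3.11.15 with SciPy 1.17.1, matplotlib 3.10.9, pandas 2.3.3 and NumPy 2.4.6, and DESeq2 1.42.0, limma 3.58.1 and edgeR 4.0.16 in R 4.3.3.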

Additional observations from a re-analysis of the deposited data

Results flagged for a closer look

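Jph1 in control animal 4 stood apart from the other control animals. Its level was 33.8 CPM, and the next control animal stood at 54.8 CPM. On the log2 scale this gap was 0.689 of the whole range of the 6 control animals, above the critical value of 0.625. Of all 11 animals that one was also the lowest for Atp2a2, at 18365 CPM, and for Casq2, at 569 CPM. Of 18 sets of values examined this was the 1 that passed, and chance flags about 1 in 20.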

How the results depend on the processing

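The count of calcium genes called by maternal diet was 0 under every alternative run, and so was the count of all genes called except with DESeq2 (7) and edgeR's likelihood ratio test (8). Directions near 0 turned. Atp2a2 had a log2 fold change of 0.0138 with library size scaling, 0.0029 with a term for the initial of each animal's label and 0.0135 with the fast myosin index as a covariate, which was added after seeing the data. Pln had 0.0245 with library size scaling, 0.0022 with the stricter filter (5 CPM in 5 animals), 0.0046 with the likelihood ratio test, 0.18 with the label initial and 0.16 with the myosin index. By medians the Casq1 to Casq2 difference was 0.14 and the Sln to Pln difference -0.0229. Without 1 animal the log2 fold changes ran from -0.0702 to 0.0618 for Atp2a2, -0.0784 to 1.05 for Pvalb, -0.10 to 0.23 for Sln and -0.48 to 0.27 for Pln. The difference in the Casq1 to Casq2 ratio then ran from -0.12 to 0.0299 and that in the Sln to Pln ratio from -0.0229 to 0.32. The direction of the diet difference in Casq1, Casq2 and Jph1 held under each alternative run, but without 1 animal their size ran from -0.18 to -0.0723 for Casq1, -0.12 to -0.0025 for Casq2 and 0.06 to 0.28 for Jph1. With the myosin index as a covariate it was -0.0616 for Casq1 and -0.12 for Casq2. Of the 9 relations to fast myosin 0 passed adjustment with all animals, 0 to 1 without 1 animal (1 without control animal 5) and 1 with Myh2 alone, in both cases the Casq1 to Casq2 ratio. Adjustment was made within each alternative and does not cover the choice among them. Without 1 animal r ran from -0.0043 to 0.44 for Atp2a2 and from -0.38 to 0.27 for Pvalb. With library size scaling r was -0.16 for Atp2a2, 0.29 for Casq1 and -0.61 for Casq2. With Myh4 alone, added after seeing the data, r was -0.10 for Casq1, 0.0038 for Casq2, -0.18 for Pln, -0.62 for Sln, 0.0729 for Jph1 and -0.0539 for the Casq1 to Casq2 ratio. The cause of these turns was not tested. The table's headers number the animals alike in both groups, but the labels do not say what a shared number means. Over 5 same-numbered pairs, deviations from the group means had correlations of -0.35 to 0.04, and 0 of 5 high-fat animals correlated best with the control of their number. With that number as a replicate block, added after seeing the data, edgeR called 0 genes (261 at an unadjusted p under 0.05, against 523 without the block). The log2 fold change was then 0.0183 for Atp2a2 and -0.0397 for Sln. With 5 and 6 animals, changes of 2-fold or less could often go uncalled, and larger changes could also be missed.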
